A study of Mus musculus with 12 samples.

Results

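The genes described here are 10 regulators of the G1 phase of the cell cycle and of the p53 response, chosen by name from the 52636 genes in the files. They are the G1 cyclins Ccnd1, Ccne1 and Ccne2, the E2f transcription factors E2f1 and E2f8, the inhibitors of cyclin-dependent kinases Cdkn1a (p21) and Cdkn1b (p27), the tumour suppressor gene Trp53, which encodes p53, and its targets Mdm2 and Ccng1. RNA-seq was done on the livers of 12 male C57Bl/6J mice aged 16 weeks, 6 of VDD-F1 and 6 of VDS-F1, and each left lateral lobe gave 1 library. The dams of VDD-F1 mice ate a vitamin D deficient diet before mating and through pregnancy and were given calcium gluconate, and the dams of VDS-F1 mice ate a matched sufficient diet. All dams ate the sufficient diet after delivery and all offspring after weaning, so the groups did not differ in their diet as adults. The paper gives as a limit that VDD-F1 mice remained deficient or low in vitamin D in early life after birth. Prenatal and neonatal deficiency therefore cannot be told apart. The comparison asks whether deficiency before and just after birth is followed by a lasting difference in these genes in the adult liver. Litters are not named in the labels, so p-values measure the spread between these mice and not between litters, though the diet was given to dams. If mice shared a litter, these p-values may be too small for an effect of diet.

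D-type cyclins rise when a resting cell receives a growth signal. They activate Cdk4 and Cdk6, the retinoblastoma protein is phosphorylated, and E2f factors are released to switch on genes of DNA replication, E-type cyclins among them. The inhibitors p21 and p27 hold this step back, and p53 raises p21 after DNA damage or other stress while it also raises Mdm2, the ligase that degrades p53. Adult hepatocytes rest in G0, keep Ccnd1 low and raise it after partial hepatectomy or injury.

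RefSeq promoter windows were at hand for 8 of the 10 genes, in 9 entries, and for neither Ccnd1 nor Ccne2. The 250 bases before the transcription start are printed for Cdkn1a, Mdm2 and Ccng1, since these 3 p53 targets differed from each other in their values below. Capitals mark each match to the p53 decamer, the 10-base unit of a p53 response element, which reads alike on both strands. Sequences run 5′ to 3′ on the strand of the gene in GRCm38.p6.
Cdkn1a, chr17:29090729-29090978, + strand: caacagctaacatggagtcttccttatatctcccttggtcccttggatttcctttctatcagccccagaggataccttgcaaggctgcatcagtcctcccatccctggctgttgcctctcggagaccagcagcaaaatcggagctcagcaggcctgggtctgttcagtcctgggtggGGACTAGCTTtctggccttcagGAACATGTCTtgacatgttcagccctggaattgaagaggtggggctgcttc
Mdm2, chr10:117710759-117711008, - strand: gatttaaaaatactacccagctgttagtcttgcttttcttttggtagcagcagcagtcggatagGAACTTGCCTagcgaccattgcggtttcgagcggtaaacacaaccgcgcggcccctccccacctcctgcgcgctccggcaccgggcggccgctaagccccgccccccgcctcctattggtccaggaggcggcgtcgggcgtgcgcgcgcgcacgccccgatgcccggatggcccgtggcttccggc
Ccng1, chr11:40755287-40755536, - strand: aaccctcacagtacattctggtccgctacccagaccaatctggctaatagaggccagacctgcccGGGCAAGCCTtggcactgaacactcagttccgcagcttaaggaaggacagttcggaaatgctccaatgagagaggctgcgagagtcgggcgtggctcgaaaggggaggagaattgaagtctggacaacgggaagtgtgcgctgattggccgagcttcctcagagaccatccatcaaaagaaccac
Cdkn1a held 2 matches in this window, which began 73 and 51 bases before the start, and none in the window of its other start. Mdm2 held 1 match 186 bases before the start and Ccng1 held 1 match 185 bases before it. Trp53 also held 1, and 4 of the 9 entries held the decamer, as did 7.13% of all 32851 promoter windows of the same length. None of the 9 entries held an E2F box, searched on both strands as TTTCCCGC, TTTGGCGC, TTTCGCGC and TTTGCCGC, which 1.86% of all windows held. The E2f1 entry lies inside the annotated gene, before an internal start, and not upstream of the whole gene. The CCAAT box, searched as CCAAT on both strands, was in 5 of the 9 entries and in 33.8% of all windows. A match is a likeness of letters only.

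Each library held 25897868 to 36403413 fragments, of which 14275793 to 20815066 were counted on genes, and 16432 to 18901 genes were detected. In VDS6, 11.1% of the fragments lay outside genes, the highest share of the 12 libraries. The study's supplement gives a liver weight for VDD4, VDD5 and VDD6 and for VDS3, VDS4, VDS5 and VDS6, which are 7 mice, and gives none for the other 5. The supplement labels the VDS-F1 panels VSD, and they were matched to the mice by number, on which all values by set rest. Values are also given within these sets of mice. Levels are in CPM, counts scaled to library size by the TMM method, and differences are log2-fold changes of VDD-F1 over VDS-F1 from edgeR's quasi-likelihood test. A gene counted as a DEG when its adjusted p-value was below 0.05 and its level differed by more than 1 on the log2 scale in either direction. The tissue label held, since the summed level of 8 hepatocyte markers was 82368 to 110747 CPM in every mouse.

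Of the 10 genes, 9 passed the filter of a mean count of 12, and Ccne1 did not. None was a DEG in edgeR, where 0.0161% of 12453 genes were DEGs higher in VDD-F1 (2 genes) and 0.0241% were DEGs lower (3 genes). At an unadjusted p-value under 0.05, Ccnd1 and Cdkn1a were higher in VDD-F1, beside 9.55% of all genes, and no member was lower, beside 6.29% of all genes. With DESeq2's Wald test both Ccnd1 and Cdkn1a were DEGs, beside 1.75% of all genes that were DEGs higher in VDD-F1, and no member was a DEG lower in VDD-F1, beside 0.281%. The largest differences were thus in a cyclin that drives G1 and in an inhibitor that stops it. In bulk tissue, a change in the number of cells of a type and a change in the RNA per cell cannot be told apart.

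**Figure D1:**
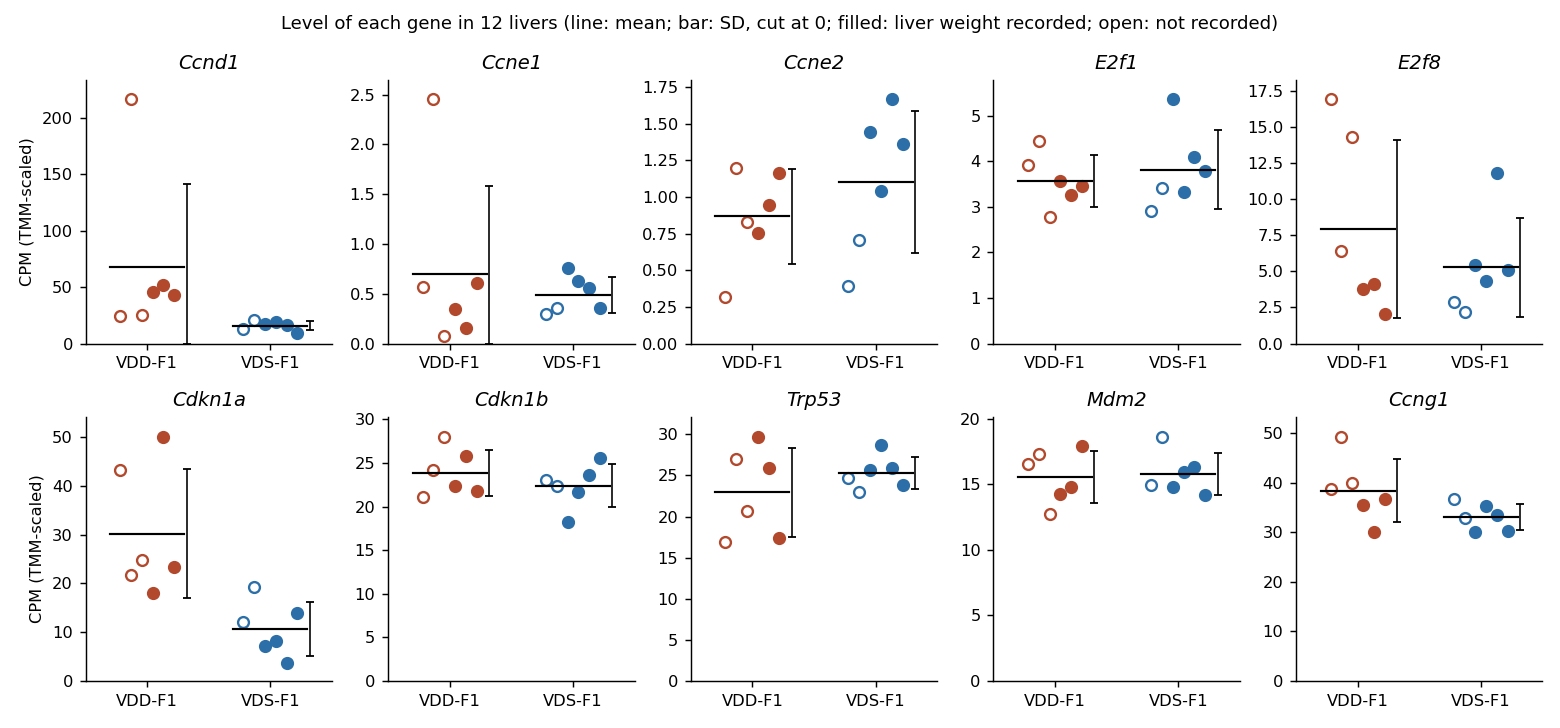
Level of each of the 10 genes in CPM (vertical axes, linear from 0) in 6 VDD-F1 and 6 VDS-F1 mice, with 1 point per mouse, the group mean as a line and the SD as a bar that stops at 0. Filled points are mice with a recorded liver weight, and VDD2 stands at 216.6 CPM for Ccnd1, above the other VDD-F1 mice at 24.7 to 51.7 CPM and all VDS-F1 mice at 9.59 to 20.5 CPM.

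Ccnd1 encodes cyclin D1, the cyclin through which growth signals reach the cell cycle (ENSMUSG00000070348.5, chromosome 7, 144929931 to 144939925, - strand). Its level in VDD-F1 mice 1 to 6 was 24.7, 216.6, 24.9, 45.3, 51.7 and 43.2 CPM. In VDS-F1 mice 1 to 6 it was 13.03, 20.5, 16.9, 19.1, 16.5 and 9.59 CPM. Every VDD-F1 mouse was above every VDS-F1 mouse, and VDD2 stood far above the other 5. Among all genes tested, 0.61% (76 genes) were higher in VDD-F1 with no overlap between the groups, and 0.57% were lower in this way. The means were 67.8 ± 73.8 CPM in VDD-F1 and 15.9 ± 4.03 CPM in VDS-F1 (SD, n = 6 each). The log2-fold change was 2.09 with a standard error of 0.48, and the adjusted p-value was 0.0855 in edgeR. DESeq2 gave the same change with an adjusted p-value of 0.00711, and limma-voom with sample weights gave 1.46 with 0.0214.

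The size of the Ccnd1 difference rested in part on VDD2. Without this mouse the VDD-F1 mean was 38.0 ± 12.4 CPM (SD, n = 5), and the log2-fold change was 1.25 with a standard error of 0.23 and an adjusted p-value of 0.0762 in edgeR. Without VDD1 the adjusted p-value was 0.0210, and without VDD3 it was 0.0423. Leaving out any 1 of the 12 mice kept the log2-fold change between 1.25 and 2.27. VDD2 also had the highest summed level of the markers of several other cell types. The sum of 5 cholangiocyte markers was 114.7 CPM in VDD2, against a VDD-F1 median of 61.3 CPM and a VDS-F1 range of 27.6 to 51.0 CPM. The sum of 5 dendritic cell markers was 17.8 CPM in VDD2, against a VDD-F1 median of 6.70 CPM and a VDS-F1 range of 0.893 to 3.13 CPM, with 4 of the 5 below the filter and none at 0 in all mice. The stellate cell sum was 471 CPM in VDD2 and 261 to 361 CPM in VDS-F1, and the T and NK cell sum was 7.05 CPM in VDD2 and 0.247 to 2.12 CPM in VDS-F1. Of the 5 T and NK cell markers, 4 were below the filter. The Kupffer cell sum was 229 CPM in VDD2 and 119 to 231 CPM in VDS-F1. Markers of several cell types also differed between the diets apart from VDD2, in both directions. In mice with a recorded liver weight, the Kupffer cell markers Clec4f and Cd5l had log2-fold changes of -0.80 and -0.64. The endothelial marker Stab2 had -0.48, and the stellate cell marker Dcn had 0.58. Their adjusted p-values were 0.0142, 0.0153, 0.00684 and 0.00626 in edgeR. The other markers of these cells had adjusted p-values above 0.05. Of the 5 cholangiocyte markers, Epcam, Sox9 and Spp1 were higher in VDD-F1 at an unadjusted p-value under 0.05 over the 12 mice, beside 9.55% of all genes. In mice with a recorded liver weight, which leave out VDD2, Epcam had a log2-fold change of 1.32 and Spp1 of 0.99. Their adjusted p-values there were 0.0133 and 0.00727 in edgeR, where 13% of all genes were higher at an unadjusted p-value under 0.05. Sox9, Krt7 and Krt19 had adjusted p-values of 0.110, 0.430 and 0.588 in that set. The dendritic cell marker Itgax was at 0.694, 12.4, 1.96, 4.53, 5.68 and 3.87 CPM in VDD-F1 mice 1 to 6 and at 0.412 to 2.003 CPM in VDS-F1, with an adjusted p-value of 0.0918 in edgeR and 0.00256 in DESeq2. Within VDD-F1 the order of Itgax was that of Ccnd1. From the same RNA-seq the paper estimated a lower proportion of dendritic cells in VDD-F1, the opposite direction to these marker levels. The part of these cells in the differences of Ccnd1 and of the E2f target genes below was not tested.

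The E-type cyclins, which activate Cdk2 at the entry to S phase, were scarce in both groups. Ccne1 (ENSMUSG00000002068.16, chromosome 7, 38097984 to 38107534, - strand) had 9, 47, 1, 5, 3 and 13 fragments in VDD-F1 mice 1 to 6 and 6, 6, 11, 12, 8 and 5 in VDS-F1 mice 1 to 6. With a mean count of 10.5 it missed the filter, and the groups overlapped. VDD2 was again the highest, at 2.45 CPM, where the other VDD-F1 mice lay at 0.0753 to 0.606 CPM and VDS-F1 mice at 0.296 to 0.756 CPM. When genes with a total count of 12 were admitted, its log2-fold change was 0.53 with a standard error of 0.64 and an adjusted p-value of 0.760 in edgeR.

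Ccne2 (ENSMUSG00000028212.16, chromosome 4, 11191351 to 11204779, + strand) was at 0.316, 1.2005, 0.828, 0.755, 0.947 and 1.17 CPM in VDD-F1 mice 1 to 6. In VDS-F1 mice 1 to 6 it was at 0.395, 0.708, 1.44, 1.04, 1.67 and 1.36 CPM. The groups overlapped, with the lowest mouse of all in VDD-F1 and the 3 highest in VDS-F1. Between the diets the log2-fold change was -0.31 with a 95% interval of -1.13 to 0.51 and an adjusted p-value of 0.738 in edgeR. Ccne2 had 5 to 25 fragments per library.

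E2f1, an activator of S phase genes (ENSMUSG00000027490.17, chromosome 2, 154559407 to 154569892, - strand), stood at 3.91, 4.44, 2.79, 3.57, 3.26 and 3.45 CPM in VDD-F1 mice 1 to 6. It stood at 2.91, 3.42, 5.36, 3.33, 4.10 and 3.79 CPM in VDS-F1 mice 1 to 6. The ranges overlapped over most of their length. For E2f1 the log2-fold change was -0.09 with a 95% interval of -0.48 to 0.30 and an adjusted p-value of 0.856 in edgeR.

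E2f8 is an atypical E2f that represses E2f1 targets and takes part in the polyploidy of hepatocytes (ENSMUSG00000046179.17, chromosome 7, 48866429 to 48881596, - strand). Its level was 16.9, 6.42, 14.3, 3.78, 4.15 and 2.05 CPM in VDD-F1 mice 1 to 6. It was 2.91, 2.18, 5.43, 4.32, 11.8 and 5.08 CPM in VDS-F1 mice 1 to 6. Both groups spread widely, and the highest and the lowest mouse of all were both VDD-F1. For E2f8 the log2-fold change was 0.59 with a 95% interval of -0.49 to 1.66 and an adjusted p-value of 0.607 in edgeR, and limma-voom gave -0.12 with an adjusted p-value of 0.909.

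The E2f8 levels went in opposite directions in the sets of mice. Among mice with a recorded liver weight, VDD-F1 lay at 2.05 to 4.15 CPM and VDS-F1 at 4.32 to 11.8 CPM (n = 3 and 4). Among mice without one, VDD-F1 lay at 6.42 to 16.9 CPM and VDS-F1 at 2.18 to 2.91 CPM (n = 3 and 2). The groups thus did not overlap within either set, VDD-F1 being lower in the former and higher in the latter, and 1.24% of all genes tested (155 genes) were separated in opposite directions in this way. The log2-fold change was -1.003 with an adjusted p-value of 0.109 in the set with recorded weights and 2.29 with 0.993 in the set without, in edgeR. The diet by set interaction was -3.29 with a standard error of 0.66 and an adjusted p-value of 0.114 in edgeR, where 9.01% of all genes had an unadjusted p-value under 0.05 for this term and 0.0883% an adjusted one. For the other 8 genes tested the interaction had adjusted p-values of 0.742 to 0.986.

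Levels of Nr1d1 also went in opposite directions in the sets of mice. Nr1d1, a repressor in the core clock, was at 145.3, 131.7 and 170.4 CPM in VDD1 to VDD3 and at 51.1 to 57.2 CPM in VDD4 to VDD6. It was at 213.7, 226.8 and 200.3 CPM in VDS3 to VDS5 and at 49.8, 57.7 and 58.1 CPM in VDS1, VDS2 and VDS6. E2f8 was at 4.32 to 16.9 CPM in the 6 mice with high Nr1d1 and at 2.05 to 5.08 CPM in the 6 with low Nr1d1, so the ranges overlapped. The mice were split in this way after their Nr1d1 values were seen. The diet by set interaction of Nr1d1 was -3.14 with an adjusted p-value of 0.0573 in edgeR. Dbp, a clock output gene, had an interaction of -6.78 with an adjusted p-value of 0.175. Of the 12 clock genes, 5 had an interaction below 0 and 1, Cry1 at 1.56, had one above 0 at an unadjusted p-value under 0.05, beside 9.01% of all genes in both directions, and none passed an adjusted p-value of 0.05 in edgeR. The 5 were Nr1d1, Dbp, Ciart at -4.71, Per3 at -3.25 and Nr1d2 at -1.38. Cry2, Per2 and Per1 had -0.32, -0.59 and -0.05, with adjusted p-values of 0.733, 0.803 and 0.995 in edgeR. Npas2, Arntl and Clock had 2.37, 1.55 and 0.44, with adjusted p-values of 0.571, 0.571 and 0.678. Dbp, Cry1, Ciart, Per3, Nr1d2, Npas2, Arntl and Clock were picked after their values were seen. The part of the clock genes in the E2f8 pattern was not tested, and the hour of dissection is not given in the sources used here.

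**Figure D2:**
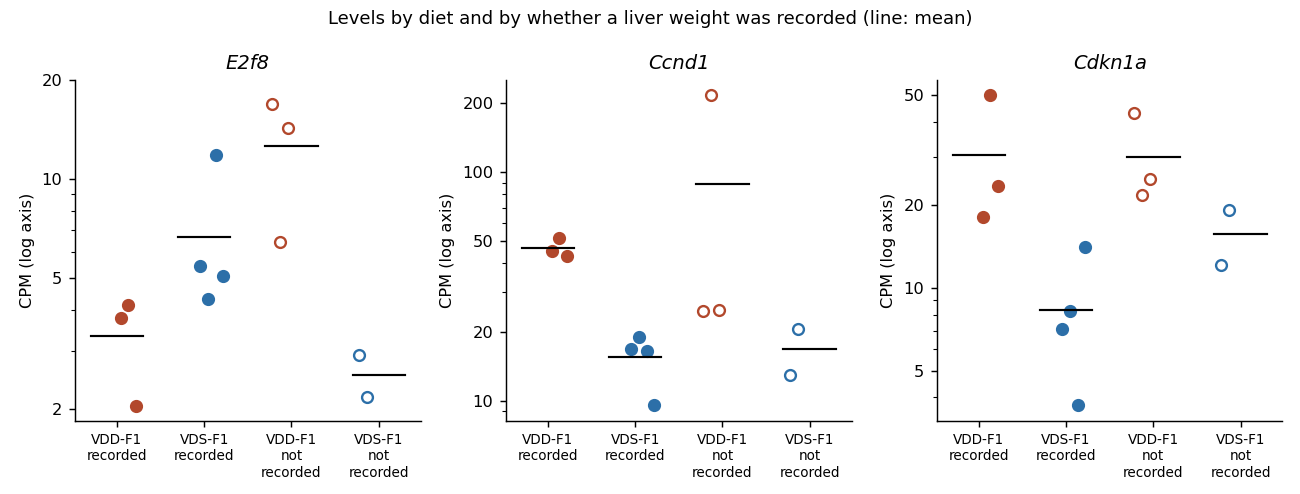
Level of E2f8, Ccnd1 and Cdkn1a in CPM (vertical axes, logarithmic) by prenatal diet and by whether a liver weight was recorded, with 1 point per mouse and the mean as a line (n = 3, 4, 3 and 2 from left to right). E2f8 was lower in VDD-F1 than in VDS-F1 in the set with recorded weights and higher in the set without, while Ccnd1 and Cdkn1a were higher in VDD-F1 in each set.

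Cdkn1a encodes p21, which inhibits cyclin-dependent kinases and arrests the cell cycle (ENSMUSG00000023067.13, chromosome 17, 29090976 to 29100727, + strand). Its level in VDD-F1 mice 1 to 6 was 43.4, 21.7, 24.8, 18.1, 50.1 and 23.4 CPM. In VDS-F1 mice 1 to 6 it was 12.1, 19.2, 7.08, 8.27, 3.75 and 14.0 CPM. VDD-F1 mice were higher except for an overlap between VDD4 and VDS2, and 5 of the 6 lay above the highest VDS-F1 mouse. The means were 30.2 ± 13.2 CPM in VDD-F1 and 10.7 ± 5.53 CPM in VDS-F1 (SD, n = 6 each). The log2-fold change was 1.49 with a standard error of 0.35 and an adjusted p-value of 0.0855 in edgeR. DESeq2 gave 1.49 with an adjusted p-value of 0.00160, and limma-voom 1.77 with 0.0175.

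The Cdkn1a difference did not rest on VDD2, which was among the lower VDD-F1 mice at 21.7 CPM. Without VDD2 the log2-fold change was 1.57, and leaving out each of the 12 mice in turn gave 1.28 to 1.74 with adjusted p-values of 0.0515 to 0.208 in edgeR. In mice with a recorded liver weight VDD-F1 lay at 18.1 to 50.1 CPM and VDS-F1 at 3.75 to 14.0 CPM, a log2-fold change of 1.89 with an adjusted p-value of 0.00982. In mice without one VDD-F1 lay at 21.7 to 43.4 CPM and VDS-F1 at 12.1 to 19.2 CPM, with a log2-fold change of 0.94, an unadjusted p-value of 0.0335 and an adjusted one of 0.9998 in edgeR. The groups did not overlap within either set, for Cdkn1a as for Ccnd1, and 1.51% of all genes tested (188 genes) were higher in VDD-F1 in this way. Ccnd1 showed a log2-fold change of 1.59 with an adjusted p-value of 0.000282 in the former set and 2.42 with an unadjusted p-value of 0.0547 and an adjusted one of 0.9998 in the latter, again in edgeR.

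Cdkn1b encodes p27, another inhibitor of the same family (ENSMUSG00000003031.14, chromosome 6, 134920401 to 134925513, + strand). It was at 21.1, 24.2, 28.0, 22.3, 25.8 and 21.7 CPM in VDD-F1 mice 1 to 6. It was at 23.0, 22.3, 18.2, 21.7, 23.6 and 25.5 CPM in VDS-F1 mice 1 to 6. The mice lay close together in both groups, with an SD of 11.2% of the mean in VDD-F1 and 10.9% in VDS-F1. The log2-fold change was 0.09 with a 95% interval of -0.12 to 0.30 and an adjusted p-value of 0.699 in edgeR, an interval that lies below that of Cdkn1a at 0.75 to 2.23.

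**Figure D3:**
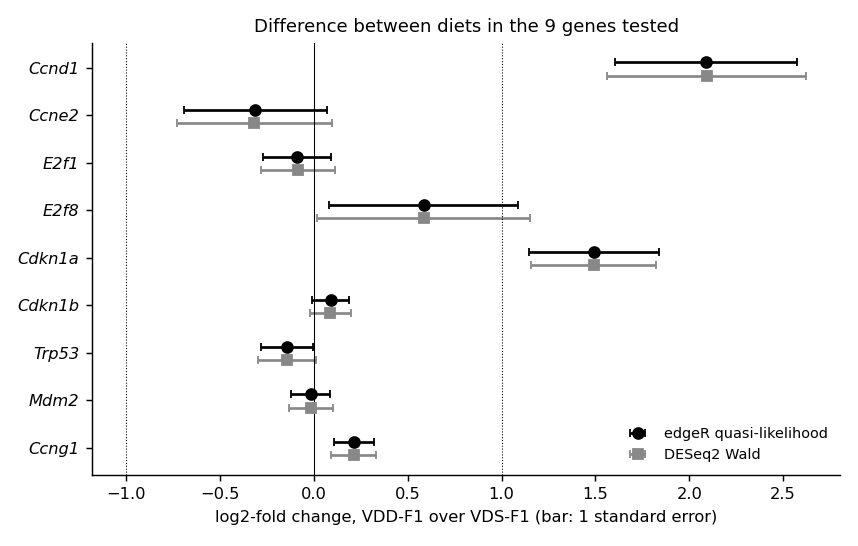
Log2-fold change of VDD-F1 over VDS-F1 (horizontal axis) for the 9 genes tested, from edgeR (black) and DESeq2 (grey), with bars of 1 standard error and dotted lines at the DEG limits of -1 and 1. Ccnd1 at 2.09 and Cdkn1a at 1.49 lie past the limit of 1, and the other 7 genes lie between -0.31 and 0.59.

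Trp53 itself (ENSMUSG00000059552.13, chromosome 11, 69580359 to 69591873, + strand) was at 16.9, 27.0, 20.6, 29.7, 25.9 and 17.4 CPM in VDD-F1 mice 1 to 6. It was at 24.7, 23.0, 25.7, 28.7, 25.9 and 23.8 CPM in VDS-F1 mice 1 to 6. VDD1, VDD3 and VDD6 lay below every VDS-F1 mouse, VDD4 lay above every one, and the SD was 23.4% of the mean in VDD-F1 and 7.90% in VDS-F1. Trp53 had a log2-fold change of -0.14 with a 95% interval of -0.44 to 0.15 and an adjusted p-value of 0.652 in edgeR. These are RNA levels, and p53 is controlled largely through the stability of the protein, which was not measured.

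Mdm2 (ENSMUSG00000020184.15, chromosome 10, 117688875 to 117710758, - strand) was at 16.5, 17.3, 12.7, 14.3, 14.8 and 17.9 CPM in VDD-F1 mice 1 to 6. It was at 14.96, 18.6, 14.8, 15.9, 16.3 and 14.2 CPM in VDS-F1 mice 1 to 6. The groups lay over each other. Mdm2 had a log2-fold change of -0.02 with a 95% interval of -0.24 to 0.21 and an adjusted p-value of 0.962 in edgeR.

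Ccng1 encodes cyclin G1, a target of p53 that binds a phosphatase acting on Mdm2 (ENSMUSG00000020326.7, chromosome 11, 40748552 to 40755311, - strand). It was at 38.8, 49.3, 39.8, 35.6, 30.1 and 36.8 CPM in VDD-F1 mice 1 to 6. It was at 36.6, 32.9, 30.0, 35.4, 33.5 and 30.2 CPM in VDS-F1 mice 1 to 6. VDD-F1 mice were somewhat higher, 4 of the 6 above the highest VDS-F1 mouse, with an overlap at 30.1 to 36.6 CPM. Ccng1 had a log2-fold change of 0.21 with a 95% interval of -0.01 to 0.44 and an adjusted p-value of 0.347 in edgeR. The 3 p53 targets whose promoter windows are printed above thus had log2-fold changes of 1.49, -0.02 and 0.21, while each window held at least 1 match to the decamer.

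Levels of different genes were compared per kilobase of exon, in RPKM. In VDS-F1 mice the order of the medians was Ccng1 at 9.44 RPKM, Trp53 at 6.23, Cdkn1b at 4.98, Ccnd1 at 3.54, Mdm2 at 3.04, Cdkn1a at 2.87, E2f1 at 1.14, E2f8 at 0.863, Ccne2 at 0.343 and Ccne1 at 0.172 RPKM. The VDS-F1 ranges of Ccng1, Trp53 and Cdkn1b did not overlap. Every other pair of neighbours in this order overlapped. In VDD-F1 mice the medians of Ccnd1 and Cdkn1a were 9.40 and 6.77 RPKM, which placed them next after Ccng1 at 10.8 RPKM and above Trp53 at 5.75 RPKM. A gene listed as LTO1 overlaps Ccnd1 on the opposite strand, and when counts ignored the strand the VDS-F1 mean of Ccnd1 was 2.23 RPKM in place of 3.38. Ints8 overlaps Ccne2 in the same way, with a VDD-F1 mean of 0.342 RPKM in place of 0.249.

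**Figure D4:**
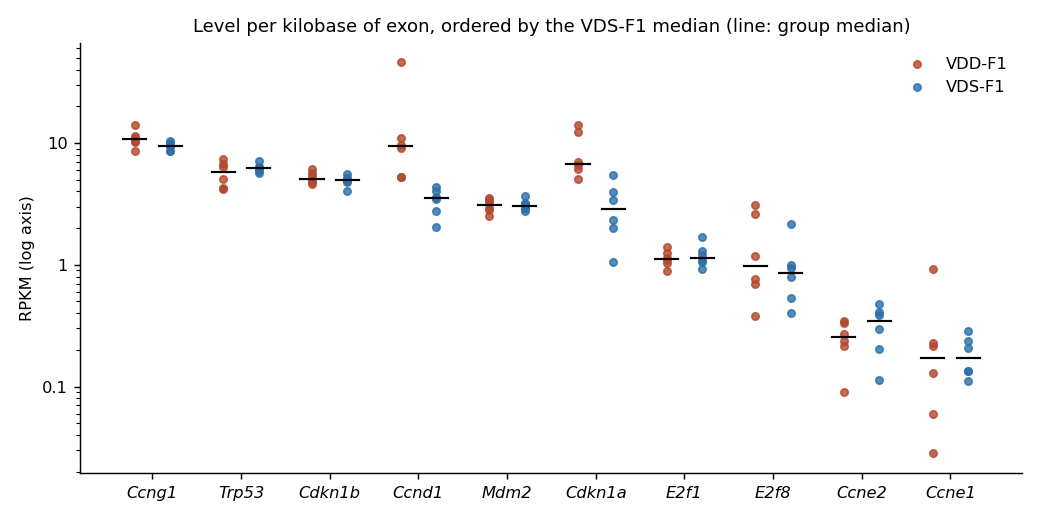
Level per kilobase of exon in RPKM (vertical axis, logarithmic) of the 10 genes, ordered by the VDS-F1 median, with 1 point per mouse and the group median as a line. Ccnd1 moves from a median of 3.54 RPKM in VDS-F1 to 9.40 RPKM in VDD-F1, while the E-type cyclins stay below 1 RPKM in every mouse.

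The wider pathway was described with lists of genes. Of 17 other genes of the G1 machinery 15 were tested, and 3 were higher in VDD-F1 and none lower at an unadjusted p-value under 0.05, with a median log2-fold change of 0.23 against 0.0041 for all genes. Of all genes, 9.55% were higher and 6.29% lower at that p-value. Cdkn2c (p18), an inhibitor of Cdk4 and Cdk6, had 2.79 to 10.1 CPM in VDD-F1 and 2.07 to 5.01 CPM in VDS-F1, a log2-fold change of 0.85 with an adjusted p-value of 0.167 in edgeR. Cdk4, the kinase bound by cyclin D1, had 23.1 to 29.1 CPM in VDD-F1 and 18.4 to 24.7 CPM in VDS-F1, with 5 of 6 VDD-F1 mice above all VDS-F1 mice and a log2-fold change of 0.25. Cdc25a, a phosphatase that activates the kinases, had a log2-fold change of 0.58, and cyclin D2 (Ccnd2) had 0.32 and missed that p-value. In the E2f family 7 of 8 other genes were tested, with a median of 0.03, and 1 was lower, beside the 6.29% of all genes. This was the repressor E2f4, with 12.9 to 16.5 CPM in VDD-F1 against 15.1 to 20.4 CPM in VDS-F1 and a log2-fold change of -0.24 with an adjusted p-value of 0.224 in edgeR.

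The next list holds genes that E2f factors switch on in S phase and mitosis. Of 24 listed 22 were tested, and 9 were higher and none lower at an unadjusted p-value under 0.05, beside 9.55% and 6.29% of all genes, with a median log2-fold change of 0.51. None was a DEG in edgeR and 4 were in DESeq2, beside 1.75% of all genes. Mki67, the proliferation marker Ki-67, was at 6.69, 43.2, 5.12, 8.58, 11.99 and 8.16 CPM in VDD-F1 mice 1 to 6 and at 2.71 to 5.44 CPM in VDS-F1 mice, with an adjusted p-value of 0.0905 in edgeR and 0.00935 in DESeq2. All VDD-F1 mice but VDD3 were above every VDS-F1 mouse. Cyclin A2 (Ccna2) had 10.1 CPM in VDD2, 0.452 to 2.88 CPM in the other VDD-F1 mice and 0.395 to 1.24 CPM in VDS-F1 mice. Cyclin B1 (Ccnb1) and the methylation maintenance factor Uhrf1 had log2-fold changes of 2.77 and 1.959, and VDD2 was the highest mouse for each of these 4 genes as it was for Ccnd1. Without VDD2, 6 of 21 tested genes of this list were higher at an unadjusted p-value under 0.05, beside 7.24% of all genes in that fit, and the median was 0.38. In mice with a recorded liver weight 7 of 21 were higher at that p-value, beside 13% of all genes tested in that set, and in mice without one 3 of 23 were, beside 2.05%. E2f1, E2f8 and Ccne2 themselves did not pass the test, and Ccne1 was below the filter.

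Of 24 other p53 targets 22 were tested, and 6 were higher and none lower at an unadjusted p-value under 0.05, beside 9.55% and 6.29% of all genes, with a median log2-fold change of 0.06. None was a DEG in edgeR and 2 were in DESeq2, beside 1.75% of all genes. Phlda3, an inhibitor of Akt signalling, had 0.947 to 6.37 CPM in VDD-F1 and 0.344 to 1.04 CPM in VDS-F1, a log2-fold change of 2.05 with an adjusted p-value of 0.0905 in edgeR and 0.00451 in DESeq2. Gdf15, a hormone released by stressed cells, had 5.17 to 9.04 CPM in VDD-F1 and 0.938 to 7.26 CPM in VDS-F1, a log2-fold change of 1.13 with an adjusted p-value of 0.134 in edgeR and 0.0339 in DESeq2. The kinase Plk2 and the death receptor Tnfrsf10b had log2-fold changes of 0.82 and 1.91. Like Cdkn1a, Gdf15 was not highest in VDD2, where it was the lowest of the VDD-F1 mice at 5.17 CPM, whereas Phlda3 and Tnfrsf10b were highest there. Without VDD2, 4 of 21 tested genes of this list were higher at an unadjusted p-value under 0.05, beside 7.24% of all genes. In mice with a recorded weight 6 of 21 were higher and 1 was lower, beside 13% and 12.6% of all genes, and in mice without one 0 of 22 were higher, beside 2.05% of all genes. Of 6 p53 regulators 5 were tested and none had an unadjusted p-value under 0.05 in edgeR or in DESeq2, with a median of -0.04. Mdm4, the partner of Mdm2, had a log2-fold change of -0.18 and the kinase Atm had 0.10.

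**Figure D5:**
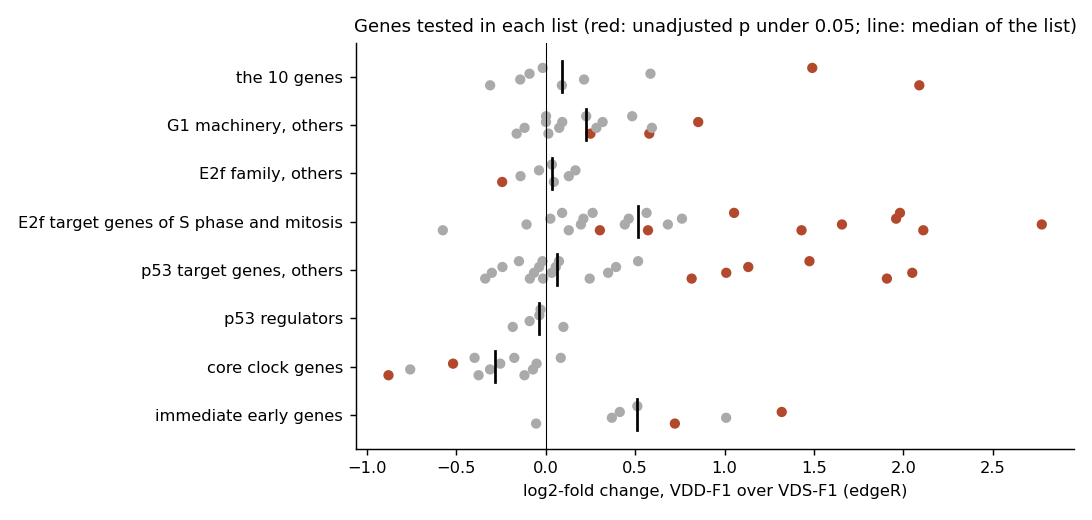
Log2-fold change of VDD-F1 over VDS-F1 in edgeR (horizontal axis) for every gene tested in the 10 genes and 7 lists, with 1 point per gene, red where the unadjusted p-value was under 0.05 and a black line at the list's median. The E2f target genes have a median of 0.51 and 9 red points, and the p53 targets have a median of 0.06 and 6 red points.

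The rapid response and clock lists were described beside these, since Cdkn1a and Ccnd1 respond to stress and growth signals and Nr1d1 is described above beside E2f8. Of 8 immediate early genes 7 were tested, with a median log2-fold change of 0.51, and 2 were higher at an unadjusted p-value under 0.05, beside 9.55% of all genes. With 1 mouse left out, this count was 1 without VDD3, VDD5, VDS3, VDS4 or VDS6, where 7.69% to 10.5% of all genes were higher, and 4 without VDS2, where 9.6% were. It was 4 in mice with a recorded liver weight, beside 13% of all genes. In mice without one 2 were higher and 1 lower, beside 2.05% and 1.72%. Egr1 had 22.8 to 107.8 CPM in VDD-F1 and 3.92 to 30.8 CPM in VDS-F1, a log2-fold change of 1.32 with an adjusted p-value of 0.198 in edgeR. Dusp1 had a log2-fold change of 0.72. All 12 clock genes were tested, with a median of -0.28, and 2 were lower at an unadjusted p-value under 0.05, beside 6.29% of all genes. In mice with a recorded liver weight 7 were lower, beside 12.6% of all genes tested in that set, and 4 of them were DEGs, beside 1.26%. In mice without one 3 were higher and 4 lower, beside 2.05% and 1.72%. Cry2, a repressor of the clock, had 16.9 to 27.5 CPM in VDD-F1 and 24.8 to 36.7 CPM in VDS-F1, a log2-fold change of -0.52 with an adjusted p-value of 0.1004 in edgeR. Per2 had a log2-fold change of -0.88. Their part in the differences of Ccnd1 and Cdkn1a was not tested.

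Across the 12 libraries the 10 genes did not vary as 1 group. Among the 9 tested, the Pearson correlations of log2 CPM ran from -0.61 for E2f1 with Cdkn1b to 0.66 for Ccnd1 with Ccng1, and Ccnd1 and Cdkn1a had 0.46. These are descriptions over 12 mice that share their diets, and no p-value is given. VDD2 stood at 7.76 log2 CPM for Ccnd1, with VDD5 next at 5.70, so the correlations of Ccnd1 can rest in part on 1 mouse. The gene most like Ccnd1 over the libraries was Inpp5d, a lipid phosphatase of blood cells, at 0.97497, followed by the condensin subunit Ncapg2 and the G protein subunit Gnb1, both at 0.948. For Cdkn1a, Stom at 0.875 and Armcx3 at 0.873 were among the 3 genes most like it, and for E2f8 the 3 were Tns2 at 0.872, the triglyceride lipase Pnpla2 at 0.866 and the fatty acid sensor Ppara at 0.851. The 3 most like Ccng1 were Acad12 at 0.938, Hist1h2ad at 0.900 and Gcnt1 at 0.893, and the 3 most like Ccne2 were Zfp952 at 0.913, Timm17a at 0.898 and Elk3 at 0.882. Cdkn1b was most like Gpat2, Rgs4 and Foxj1 at 0.883, 0.822 and 0.805, and Trp53 most like Exosc10, Ing3 and Rela at 0.882, 0.875 and 0.851. E2f1 was most like Tmem81, Gm10557 and Aen at 0.880, 0.802 and 0.792, and Mdm2 most like Rps23-ps1, Meiob and Ifi213 at 0.872, 0.816 and 0.809.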

How the data were processed

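Liver RNA-seq of 6 VDD-F1 and 6 VDS-F1 male mice was used, with 1 library per mouse. The libraries were made with a stranded kit that removes ribosomal RNA. The authors trimmed the reads, aligned them to mm10 (GRCm38) with STAR and deposited the unnormalized counts per gene of GENCODE M15. The column counting the reverse strand was used, which held 92.7% to 95.8% of the stranded counts. Positions and exon lengths came from GENCODE M21, matched by ID for 52489 of 52636 genes, and promoters came from RefSeq.

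A mean count of 12 or more was required, which kept 12453 genes. The authors name DESeq2. Here edgeR 4.0.16 in R 4.3.3 (TMM, quasi-likelihood test in the legacy form) was the main test with Benjamini-Hochberg adjustment over all genes, and DESeq2 1.42.0 and limma 3.58.1 were alternatives, with other filters, normalizations, strands, sets of mice and each mouse left out. The fits were tested on simulated data. Intervals are 95% intervals from the quasi-likelihood test. RPKM is CPM divided by the length of merged exons in kilobases. Correlations used log2 CPM with a prior count of 2.

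The 10 genes and all lists were chosen with earlier results of these data known, so they are described and not tested as sets. Named genes are the 10, up to 4 genes with the smallest p-values of each list and the 3 genes most correlated with each of the 9 tested, of which 1 is not reported here. Dbp, Cry1, Ciart, Per3, Nr1d2, Npas2, Arntl, Clock, Krt7 and Cd5l were named after their values were seen. The record of liver weights comes from the study's supplement. No explanation was tested.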

Additional observations from a re-analysis of the deposited data

Results flagged for a closer look

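For 20 groups of 6 mice, each gene in each diet, the highest and lowest mouse were compared with the rest by Dixon's ratio at the 95% level, and 3 stood apart, where chance gives about 1 in 20 groups, or 1 here. They were Ccnd1 in VDD2 at 216.6 CPM, Ccne1 in VDD2 at 2.45 CPM from 47 fragments, and E2f8 in VDS5 at 11.8 CPM. The highest of the other mice of the same group had 51.7, 0.606 and 5.43 CPM. VDD2 was also the highest mouse for Mki67, Ccna2, Ccnb1 and Uhrf1 and for the summed markers of cholangiocytes, stellate cells and dendritic cells.

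The E2f8 levels of the 2 diets went in opposite directions in the sets of mice. All VDD-F1 mice were below all VDS-F1 mice where a liver weight was recorded and above them where none was. Among all genes tested, 1.24% were separated in opposite directions in this way. The interaction was -3.29 on the log2 scale, with an unadjusted p-value of 0.000253 and an adjusted p-value of 0.114 in edgeR, so it did not pass the correction over all genes.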

How the results depend on the processing

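The log2-fold changes of Ccnd1 and Cdkn1a kept their direction under every alternative run, and their calls depended on the method. Ccnd1 was a DEG with DESeq2 (2.09), limma-voom (1.46), no filter on low counts (2.08) and the mice with a recorded liver weight alone (1.59). Cdkn1a was a DEG under the same alternatives (1.49, 1.77, 1.48 and 1.89). Leaving out 1 mouse gave Ccnd1 1.25 to 2.27, a DEG without VDD1 or without VDD3. DEGs higher and lower in VDD-F1 numbered 2 and 3 in edgeR's legacy form. They numbered 218 and 35 with DESeq2, 181 and 71 with limma-voom, 10 and 7 with edgeR's newer form, 56 and 14 with no filter, 11 and 6 with the replicate block and 10 and 11 with the liver weight record as a covariate. They numbered 380 and 156 in mice with a recorded weight and 0 and 0 in mice without, where edgeR gave 257 higher and 216 lower at an unadjusted p-value under 0.05. There were 1 higher with DESeq2's size factors and 1 with counts that ignore the strand. Leaving out 1 mouse gave 0 to 212 higher and 0 to 48 lower, with 212 and 48 without VDD1 and 73 and 21 without VDD3. E2f8 reversed to -0.12 with limma-voom and -1.003 in mice with a recorded weight, where it was the 1 member lower at an unadjusted p-value under 0.05. E2f1 turned to 0.24 in mice without a recorded weight and ranged from -0.16 to 0.0288 with 1 mouse left out. Mdm2 turned to 0.0367 in mice with a recorded weight and ranged from -0.0606 to 0.0360 with 1 mouse left out. Without strand, the mean level was 2.23 RPKM for Ccnd1 in VDS-F1 and 0.342 RPKM for Ccne2 in VDD-F1. The cause of these changes was not tested.

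Replicate numbers mark different mice, and the correlations of same-numbered mice ran from -0.076 to 0.103, so they do not pair the mice. With the replicate block Ccnd1 had a log2-fold change of 1.65 and Cdkn1a 1.51, and neither was a DEG. None of the 6 VDD-F1 mice correlated best with its own number.

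The members with the fewest fragments per library were Ccne1, with 1 to 47, and Ccne2, with 5 to 25.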
